A study of Rattus norvegicus with 6 samples.

Results

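Transcripts of the cytochrome P450 families 1 to 4 were followed in rat liver across 6 diets. The members were all genes whose symbol starts with Cyp, a family number from 1 to 4 and a letter, taken from probe sets annotated with a single symbol. This gave 51 genes in 20 subfamilies, out of 14506 named genes on the array, each with 1 probe set. One of them, Cyp2s1-ps1, is a transcribed pseudogene in RefSeq. A filter on low values, set at the 30th percentile of the mean over the arrays (log2 5.14), left 46 of the 51 for testing. The other 5, Cyp1b1, Cyp2b12, Cyp2b21, Cyp2j10 and Cyp4x1, had means between 4.20 and 4.74, and no difference between their diets was above 0.42 in size.

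The animals were adult male Wistar rats, 30 in all, which first ate the normal protein diet for 10 days and then 1 of 6 diets for 5 weeks. Normal protein (NP) and high protein (HP) were each combined with a low fat background (arrays NP and HP), with high sucrose and low fat (NP-HS and HP-HS), and with high sucrose and high fat (NP-HS-HF and HP-HS-HF). All rats were killed 2 h after a calibrated meal, so every value is from a fed liver. RNA of 5 rats per diet was pooled and hybridised to 1 array, so that no diet has a replicate and single values carry no error of their own. The comparisons ask what dietary protein does to liver transcripts with and without added sucrose and fat.

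Cytochromes P450 are haem enzymes of the endoplasmic reticulum, which take electrons from cytochrome P450 oxidoreductase and insert an oxygen atom into their substrates. Families 1 to 3 are best known in liver for the oxidation of drugs, toxicants, steroids and retinoids, and family 4 for the omega-hydroxylation of fatty acids. Several subfamilies are induced through ligand-activated receptors: Cyp1a by the aryl hydrocarbon receptor (Ahr), Cyp2b and Cyp3a by the constitutive androstane receptor (CAR, gene Nr1i3) and the pregnane X receptor (PXR, gene Nr1i2), and Cyp4a by PPAR alpha (gene Ppara). In rats some of them also differ between the sexes, under the control of growth hormone.

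Values are log2 RMA summaries, and 1 unit is a 2-fold difference. The 6 arrays had medians between 6.22 and 6.25 and pairwise correlations between 0.9949 and 0.9964. Of 8 hepatocyte markers 8 passed the filter, with albumin (Alb) between 13.78 and 13.85 and the log2 of their summed level between 16.20 and 16.24. The summed level of 12 genes of tissues other than liver lay between 9.31 and 9.42. Macrophage markers stood higher with high protein (11 of 11 tested had a fitted difference above 0, summed level 11.89 to 12.03 on the NP arrays and 12.06 to 12.26 on the HP arrays). So did genes of hepatocytes around the central vein other than P450s (7 of 9, summed level 11.77 to 12.15 against 12.38 to 12.62) and of those around the portal vein (10 of 13, summed level 15.57 to 15.63 against 15.73 to 15.75). Bile duct markers (4 of 4) and endothelial markers (4 of 4) also had fitted differences above 0, with summed levels of 8.12 to 8.24 against 8.26 to 8.35 and 11.12 to 11.20 against 11.19 to 11.23. Stellate cell, lymphocyte and red cell markers overlapped between the protein levels in their sums. The red cell sum read 11.09, 11.37 and 11.28 on the NP arrays and 11.40, 11.13 and 11.37 on the HP arrays. With high protein it was thus lower with high sucrose and higher in the other backgrounds. Hbb had these signs, while Alas2 and Slc4a1 were each at -0.01 with high sucrose and high fat. None of these marker genes passed the test by itself, and their part in the P450 differences was not tested. In pooled tissue, a change in the number of cells of a type and a change in RNA per cell cannot be told apart.

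With high protein, 12 of the 46 tested members lay lower in all 3 backgrounds (26.1 percent, against 14.9 percent of all probe sets tested). Cyp2b1, Cyp2b2 and Cyp2b3 were among them. Another 5 members, Cyp3a9 among them, lay higher in all 3 (10.9 percent, against 14.6 percent of all). No member passed the limma test at an adjusted p under 0.05 over all 20450 probe sets (0 of 46, where 9 probe sets or 0.044 percent passed in all). The lowest adjusted p among the members was 0.209. At an unadjusted p under 0.05 there were 6 members, 1 higher and 5 lower, or 13.0 percent of the 46 against 8.71 percent of all probe sets tested. Of the 46, 24 had a fitted difference above 0 and 22 below, with a median of 0.02 (0.00 over all probe sets) and a median size of 0.08 (0.06 over all).

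The 3 HP arrays all lay below the 3 NP arrays for 9 members, or 19.6 percent, against 7.58 percent of all probe sets. These were Cyp2b1, Cyp2b2, Cyp2c11, Cyp2d2, Cyp2f4, Cyp2j3, Cyp2t1, Cyp3a23-3a1 and Cyp4f6. Their fitted differences ran from -0.97 for Cyp2b2 to -0.03 for Cyp2d2, so several are small in size. For 2 members, Cyp3a9 and Cyp4f4, the HP arrays all lay above the NP arrays (4.35 percent, against 7.35 percent of all). A difference of 1.2-fold or more in 1 direction in all 3 backgrounds was met by Cyp2b2 alone on the lower side (1 of 46, or 2.17 percent, against 0.474 percent of all) and by no member on the higher side (0 of 46, against 0.636 percent).

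**Figure D1:**
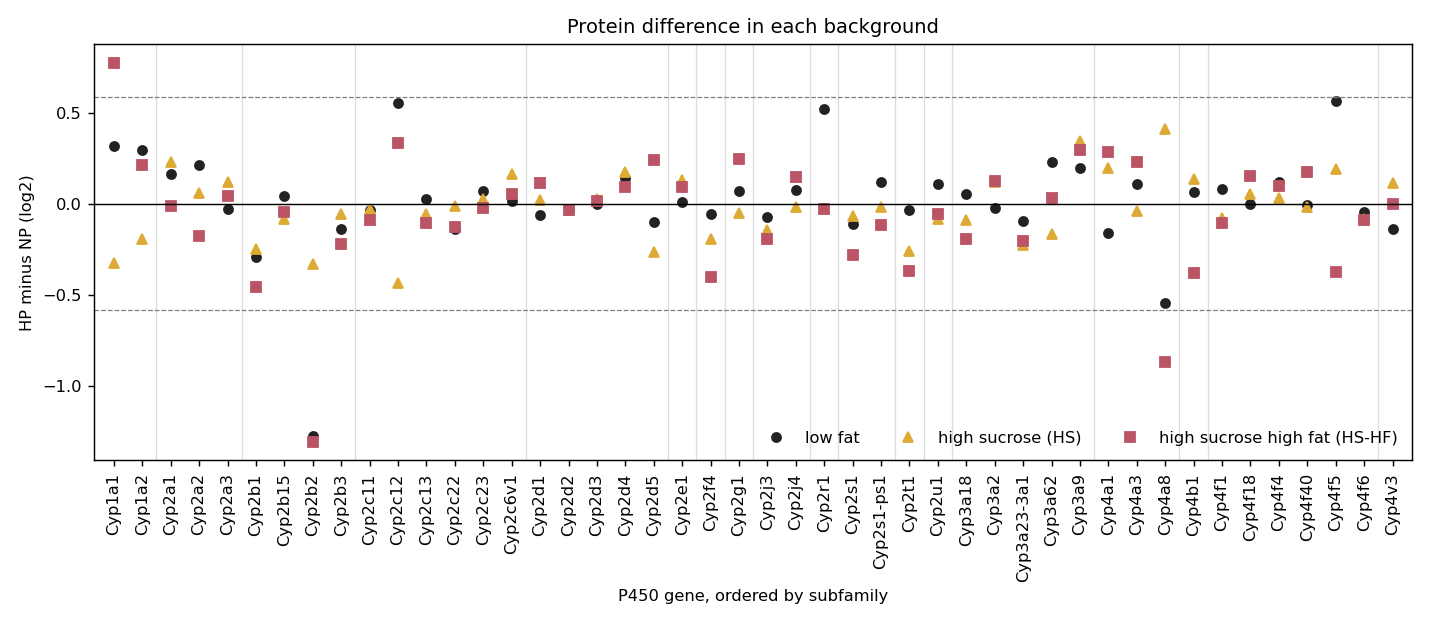
HP minus NP in log2 units (vertical axis) for each of the 46 tested P450 genes (horizontal axis, ordered by subfamily), with 1 symbol per background and dashed lines at 1.5-fold. Cyp2b2 lies at -1.27, -0.33 and -1.31, and Cyp1a1, Cyp2c12 and Cyp4a8 have symbols on both sides of 0.

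Cyp2b2, a P450 known for its strong induction by phenobarbital through CAR, had the largest fitted protein difference of the family. Its values on the NP arrays were 10.36 on low fat, 9.90 with high sucrose and 10.32 with high sucrose and high fat. On the HP arrays they were 9.08, 9.57 and 9.02 in the same order. The lowest NP array thus stood above the highest HP array, and the groups came closest with high sucrose. The difference was 2.42-fold on low fat, 1.26-fold with high sucrose and 2.47-fold with high sucrose and high fat, and the fit gave -0.97 ± 0.190 (SE, 3 pairs of arrays; limma adjusted p = 0.209).

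Its neighbour and close relative Cyp2b1, also induced by phenobarbital, lay in the same direction with a smaller span. The NP arrays read 8.83, 8.90 and 8.82, and the HP arrays 8.54, 8.65 and 8.37. The groups did not overlap, and the fitted difference was -0.33 ± 0.072 (SE, 3 pairs; limma adjusted p = 0.252). Cyp2b3, a further liver member of the subfamily, read 12.12, 11.94 and 12.03 with normal protein and 11.98, 11.88 and 11.81 with high protein. Here the groups overlapped, with differences of -0.14, -0.06 and -0.22. Cyp2b15 read 5.59, 5.51 and 5.64 against 5.63, 5.43 and 5.60, higher with high protein on low fat and lower in the other backgrounds (fitted difference -0.03). All 4 tested Cyp2b members thus had a fitted difference below 0, and 3 of them were lower in each background. Cyp2b12 and Cyp2b21, with means of 4.21 and 4.20, did not pass the filter, and their differences had mixed signs.

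**Figure D2:**
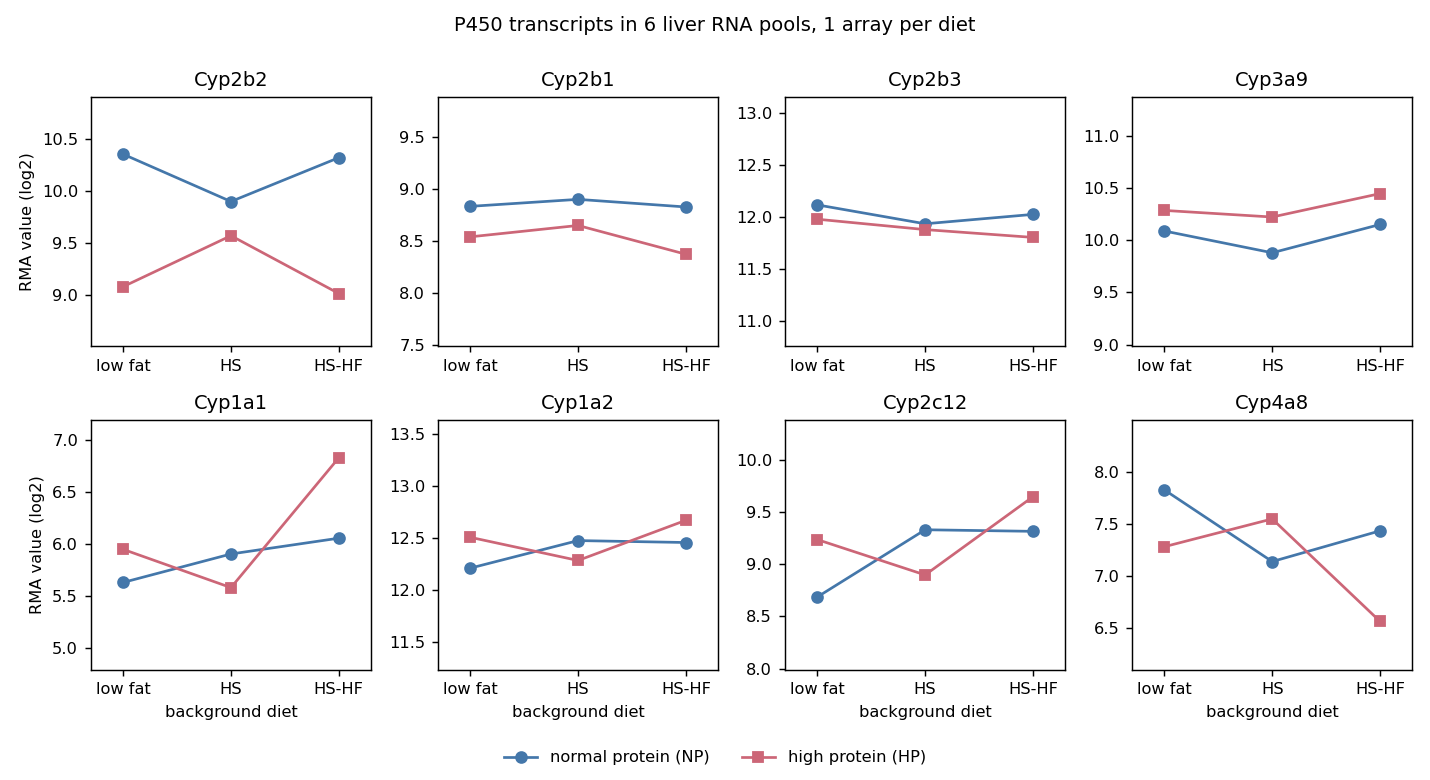
RMA values (log2, vertical axis, the same span in every panel) of 8 P450 genes by background diet (horizontal axis), with circles for the normal protein arrays and squares for the high protein arrays, 1 array per point and no error bars. The Cyp2b2 and Cyp2b1 squares lie below all circles, the Cyp3a9 squares above, and the lines of Cyp1a1, Cyp1a2, Cyp2c12 and Cyp4a8 cross.

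The regions around the gene starts are shown for Cyp2b1, Cyp2b2 and Cyp2b3, because the first and second of these had the clearest protein differences and are close relatives, and the third had a smaller one. They hold 250 bases before and 50 after the start, from RefSeq on GRCr8, all on the plus strand, at chr1:90645869-90646168, chr1:90722031-90722330 and chr1:90780242-90780541. Capitals mark TTGCNNAA, the core that factors of the C/EBP family bind, searched on both strands.
Cyp2b1: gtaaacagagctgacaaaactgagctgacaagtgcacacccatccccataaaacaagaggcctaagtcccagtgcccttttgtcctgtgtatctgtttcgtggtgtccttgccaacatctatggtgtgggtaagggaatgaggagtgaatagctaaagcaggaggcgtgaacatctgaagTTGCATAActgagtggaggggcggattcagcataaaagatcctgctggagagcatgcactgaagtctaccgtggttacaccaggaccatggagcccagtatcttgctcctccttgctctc
Cyp2b2: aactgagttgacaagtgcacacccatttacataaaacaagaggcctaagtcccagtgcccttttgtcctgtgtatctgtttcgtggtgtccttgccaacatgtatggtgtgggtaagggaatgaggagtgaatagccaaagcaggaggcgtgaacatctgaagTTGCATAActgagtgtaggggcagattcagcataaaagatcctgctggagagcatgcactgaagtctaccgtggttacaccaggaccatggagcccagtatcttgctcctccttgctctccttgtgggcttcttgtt
Cyp2b3: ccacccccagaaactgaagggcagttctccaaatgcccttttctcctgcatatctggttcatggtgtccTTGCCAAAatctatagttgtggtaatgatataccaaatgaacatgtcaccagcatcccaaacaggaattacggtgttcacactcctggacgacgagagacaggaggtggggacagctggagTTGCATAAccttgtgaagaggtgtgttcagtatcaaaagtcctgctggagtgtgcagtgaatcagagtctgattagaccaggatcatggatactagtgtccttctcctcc

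In a local alignment, Cyp2b1 and Cyp2b2 were identical at 275 of 283 aligned bases (97.2 percent), and Cyp2b1 and Cyp2b3 at 97 of 132 (73.5 percent). The core occurred once in Cyp2b1 and in Cyp2b2, and at 2 places in Cyp2b3. It was found in 14 of the 44 members with a promoter entry (31.8 percent) and in 10.5 percent of the 27457 genes in the table. All 6 Cyp2b members held it, also those that did not pass the filter. The TATA box letters TATAAA, which none of the Cyp2b windows held, were found in 13 of 44 members (29.5 percent) and in 14.3 percent of all genes. Such matches describe the letters only.

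The Cyp2b genes lie in a block of 14 members on chromosome 1, which runs from Cyp2s1 through the Cyp2b, Cyp2g and Cyp2a genes to Cyp2f4 and Cyp2t1. Of 12 tested members of the block, 8 had a fitted protein difference below 0 and 4 above. Cyp2f4 and Cyp2t1, at its far end, were among the 5 lower members at an unadjusted p under 0.05. Cyp2f4, whose relatives bioactivate naphthalene in lung, read 9.33, 9.38 and 9.33 with normal protein and 9.28, 9.19 and 8.93 with high protein (fitted -0.22 ± 0.085 SE, limma adjusted p = 0.542). Cyp2t1 read 9.76, 9.77 and 9.77 against 9.73, 9.52 and 9.41 (fitted -0.22 ± 0.084 SE, limma adjusted p = 0.531). In both genes the normal protein arrays were nearly level, and HP-HS-HF was the lowest of the 6. The Cyp2a genes of the block, of which Cyp2a3 lay close to the filter level, had fitted differences from 0.03 to 0.13.

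In the Cyp3a subfamily, whose members oxidise steroids and a wide range of drugs, the members lay on both sides of 0. Cyp3a9, which female rats express more than males, read 10.09, 9.88 and 10.15 with normal protein and 10.29, 10.22 and 10.45 with high protein. The groups did not overlap, and HP-HS and NP-HS-HF were the nearest arrays across them. The fitted difference was 0.28 ± 0.068 (SE, 3 pairs; limma adjusted p = 0.309).

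Cyp3a23-3a1, the classic target of PXR ligands in rat liver, lay the other way. It read 11.72, 11.84 and 11.71 with normal protein and 11.62, 11.61 and 11.51 with high protein (fitted -0.17 ± 0.067 SE, limma adjusted p = 0.534). Its groups did not overlap either. The remaining Cyp3a members, Cyp3a2, Cyp3a18 and Cyp3a62, had fitted differences from -0.08 to 0.07. Among the 8 measured P450s of the phenobarbital type, 4 were higher and 4 lower in the fit. At an unadjusted limma p under 0.05 there were 4 of the 8, against 8.71 percent of all probe sets tested. They were Cyp2b1, its close relative Cyp2b2 and Cyp3a23-3a1 on the lower side, and Cyp3a9 on the higher. None of the 8 passed the test at an adjusted p under 0.05. The list was chosen with earlier results of these data known.

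Of 17 tested genes outside the P450s that CAR and PXR are known to induce, 11 were higher with high protein and 6 lower in the fit, and 1 passed the test. This was Slco1a4, a hepatic uptake transporter of organic anions, which fell from 10.42, 10.48 and 10.24 to 9.70, 9.61 and 9.49 (fitted -0.78 ± 0.068 SE, limma adjusted p = 0.0452). The call was lost with the ordinary t statistic (adjusted p = 0.591), without the filter (0.0942), with quantile normalisation (0.0522), and without NP or HP (0.213) or NP-HS or HP-HS (0.262). Aldh1a1, a retinaldehyde dehydrogenase, had a pattern over the arrays like that of Cyp2b2, with 9.07, 8.53 and 8.96 against 7.42, 8.14 and 7.69. As for Cyp2b2, its groups came closest with high sucrose, and it did not pass the test (fitted -1.10 ± 0.217 SE, limma adjusted p = 0.209). For Slco1a4 the difference was instead largest with high sucrose (-0.87, against -0.72 on low fat and -0.75 with high sucrose and high fat). How many probe sets share either pattern was not counted. Ces2c, a carboxylesterase, and Alas1, the first enzyme of haem synthesis, had fitted differences of 0.29 and 0.24. The list as a whole had a median of 0.08, against 0.00 over all probe sets.

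**Figure D3:**
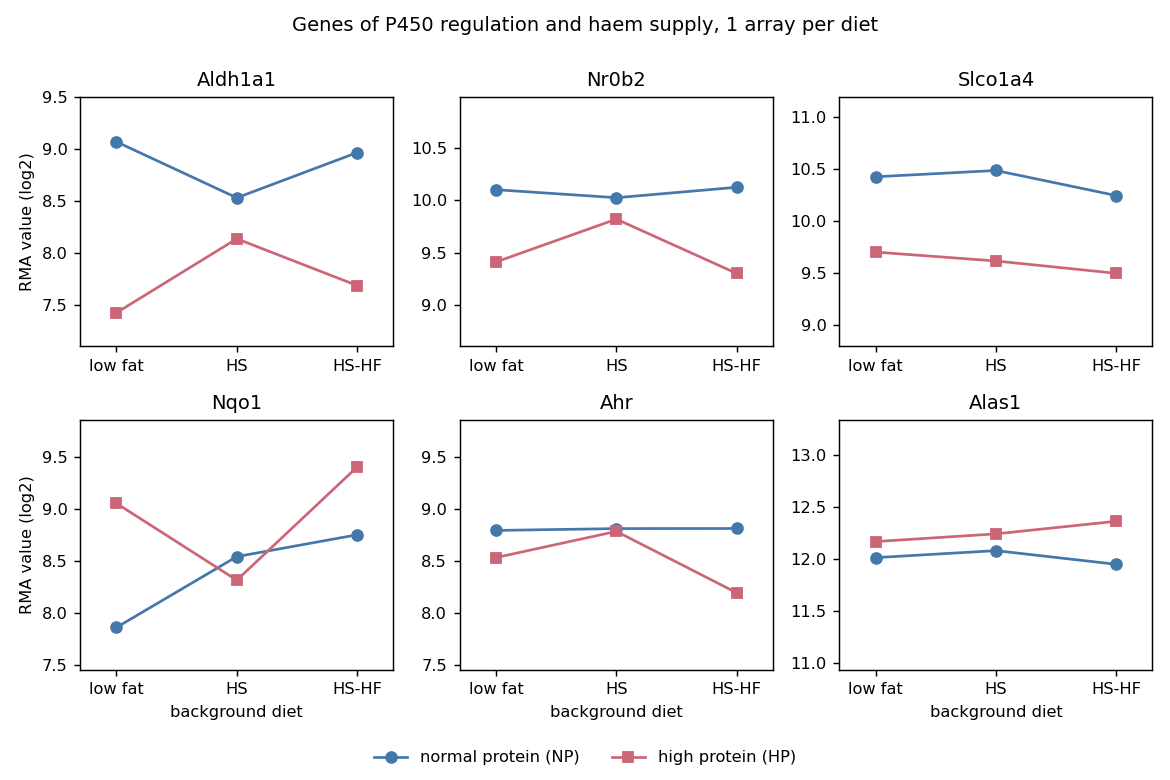
RMA values (log2, vertical axis) of Aldh1a1, Nr0b2, Slco1a4, Nqo1, Ahr and Alas1 by background diet (horizontal axis), with circles for normal protein and squares for high protein, 1 array per point. Slco1a4 lies at 9.49 to 9.70 with high protein and at 10.24 to 10.48 with normal protein.

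The P450s that the aryl hydrocarbon receptor induces showed no common direction across the backgrounds. Cyp1a1, which is low in liver until induced, read 5.63, 5.90 and 6.06 with normal protein and 5.95, 5.58 and 6.83 with high protein. HP-HS-HF was the highest of the 6 arrays and HP-HS the lowest, and the groups overlapped. High protein was thus higher by 0.32 on low fat, lower with high sucrose (-0.32), and higher by 0.77, or 1.71-fold, with high sucrose and high fat.

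Cyp1a2, its neighbour on the chromosome and an abundant liver enzyme that oxidises caffeine, was also highest on HP-HS-HF, was lowest on NP, and had the same signs in the 3 backgrounds. It read 12.21, 12.47 and 12.45 against 12.50, 12.28 and 12.67, with differences of 0.30, -0.19 and 0.21. Nqo1, a quinone reductase that Ahr and Nfe2l2 induce, read 7.86, 8.54 and 8.75 against 9.06, 8.32 and 9.41 (fitted 0.54, limma adjusted p = 0.62). It too was highest on HP-HS-HF and lower with high protein on the high sucrose background. The other tested Ahr targets did not share this pattern. Aldh3a1 was highest on NP, with protein differences of -0.37, 0.08 and -0.02. Nfe2l2 was highest on NP-HS and was lower with high protein in each background (-0.02, -0.39 and -0.22). Ahr itself read 8.80, 8.82 and 8.82 against 8.54, 8.79 and 8.20 (fitted -0.30, limma adjusted p = 0.53). None of the 3 tested Ahr targets outside the family passed the test. Hbb, a red cell marker, had protein differences with the same signs as Cyp1a1 and Cyp1a2 (0.31, -0.26 and 0.10). Whether these patterns share a source was not tested.

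In the Cyp2c subfamily, 3 of 6 members were higher and 3 lower with high protein in the fit. Cyp2c12, a steroid sulphate hydroxylase typical of female rats, was the most variable. It read 8.69, 9.33 and 9.32 with normal protein and 9.24, 8.90 and 9.65 with high protein, so that the groups overlapped and the difference changed sign (0.55, -0.43 and 0.33). Cyp2c11, the main P450 of male rat liver, stayed between 12.91 and 13.00, and Cyp2c13 between 12.96 and 13.07. The fitted differences of the female-predominant Cyp3a9, Cyp2c12 and Cyp2a1 (3 of 3 measured) ran from 0.13 to 0.28. Of these, only Cyp3a9 was higher with high protein in all 3 backgrounds. Cyp2c12 had 0.15 ± 0.179 (SE). Cyp2a1 had 0.13 ± 0.075 (SE), with a difference of -0.01 with high sucrose and high fat. The fitted differences of the 5 male-predominant members lay between -0.08 and 0.07, with 2 above 0 and 3 below.

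Among the omega-hydroxylases of fatty acids, Cyp4a8 differed most between diets. It read 7.83, 7.14 and 7.43 with normal protein and 7.28, 7.55 and 6.56 with high protein. HP-HS-HF was the lowest array and NP the highest, and the protein difference was -0.55, 0.41 and -0.87 (1.83-fold). Cyp4a1, a standard readout of PPAR alpha, read 11.70, 11.71 and 11.49 against 11.53, 11.91 and 11.77, and Cyp4a3 stayed between 12.52 and 12.77. Cyp4a1 and Cyp4a3 had fitted protein differences of 0.11 and 0.10. None of the 3 passed the test.

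Of 20 tested PPAR alpha targets outside the family, 9 were higher and 11 lower with high protein in the fit. Vnn1, a pantetheinase, passed the test and fell (fitted -1.15 ± 0.067 SE, limma adjusted p = 0.0137). The call was lost with the ordinary t statistic (adjusted p = 0.583) and without NP or HP (0.205) or NP-HS or HP-HS (0.117). Fgf21, a hepatic hormone of nutrient stress, and Decr1, an enzyme of mitochondrial beta-oxidation, had fitted differences of -0.50 and -0.43. Cpt1b had 0.22. No PPAR alpha target on the list passed the test for sucrose or fat.

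In the Cyp4f subfamily, which hydroxylates leukotrienes and long-chain fatty acids, 4 of 6 members were higher and 2 lower in the fit. Cyp4f5 read 6.67, 6.92 and 7.10 with normal protein and 7.24, 7.12 and 6.72 with high protein. Its normal protein arrays were highest where its high protein arrays were lowest. Cyp4f4 kept within 11.38 and 11.50, although its groups did not overlap. Of the epoxygenases, which make epoxides of arachidonic acid, Cyp2j3 read 11.23, 11.35 and 11.31 against 11.15, 11.21 and 11.12 (fitted -0.14 ± 0.066 SE, limma adjusted p = 0.651), while Cyp2j4 and Cyp2c23 had 0.07 and 0.02.

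The Cyp2d members, of which Cyp2d2 is the counterpart of the debrisoquine hydroxylase, ranged over the 6 arrays by 0.04 (Cyp2d2) to 0.41 (Cyp2d5). Cyp2d4 read 9.40, 9.50 and 9.62 against 9.54, 9.67 and 9.71 (fitted 0.14 ± 0.065 SE, limma adjusted p = 0.646), with higher values in HP in all 3 backgrounds. Cyp2e1, which oxidises ethanol, lay between 13.03 and 13.21. Cyp2r1, a vitamin D 25-hydroxylase, read 7.06 on NP and from 7.29 to 7.58 on the other arrays. Of 7 members better known outside the liver, 5 passed the filter, with 2 higher and 3 lower in the fit.

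For sucrose and for fat, no member passed the limma test. For sucrose, the high sucrose and low fat background was compared with the low fat background. Here 0 of 46 passed (0 percent of all probe sets), and 0 had an unadjusted p under 0.05 against 3.02 percent of all. The lowest adjusted p was 1.00. Among the 8 members with the largest moderated t for sucrose were Cyp3a18, a testosterone hydroxylase of male rats, and Cyp2a3, known from the airways. Cyp3a18 read 11.78, 12.00 and 11.94 with normal protein and 11.83, 11.92 and 11.75 with high protein, lowest without sucrose only at normal protein. Cyp2a3 read 5.28, 5.33 and 5.29 against 5.25, 5.45 and 5.33, close to the filter level. For fat added to high sucrose, 0 passed (0 percent of all) and 3 members had an unadjusted p under 0.05 (6.52 percent, against 4.95 percent of all), all 3 higher. For both together, 0 passed (0 percent of all) and 3 members had an unadjusted p under 0.05 (6.52 percent, against 5.18 percent of all), 2 higher and 1 lower. An ordinary t statistic also called no member for any of the 4 effects.

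The 3 members for fat were Cyp2u1, a hydroxylase of long-chain fatty acids, Cyp1a1 and Cyp3a9. Cyp2u1 read 7.51, 7.41 and 7.69 with normal protein and 7.62, 7.33 and 7.64 with high protein, so that both high sucrose arrays lay below the other 4. Its fitted fat difference was 0.29 ± 0.088 (SE, 2 pairs; limma adjusted p = 0.893). That of Cyp3a9 was 0.25 ± 0.083 (limma adjusted p = 0.934). For Cyp1a1 it was 0.70 ± 0.232 (limma adjusted p = 0.934), made of 0.15 with normal protein and 1.25, or 2.37-fold, with high protein. The Cyp1a1 value was 0.27 without HP-HS and 0.31 without HP-HS-HF, and 1.13 without NP-HS and 1.09 without NP-HS-HF.

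For sucrose and fat together the members were Cyp1a1 (0.65 ± 0.232 SE, limma adjusted p = 0.900), Cyp2g1 (-0.26 ± 0.097 SE, limma adjusted p = 0.924) and Cyp2d4 (0.19 ± 0.079 SE, limma adjusted p = 0.953). Cyp2g1, known from olfactory tissue, read 5.68, 5.55 and 5.33 against 5.75, 5.50 and 5.57. Its values lie near the filter. For Cyp1a1 the value was 1.04 without NP-HS-HF and 0.27 without HP-HS-HF. Cyp2a1, a testosterone hydroxylase, read 11.21, 11.16 and 11.49 against 11.37, 11.39 and 11.48, with the high fat array highest at both protein levels. Cyp2d1 read 10.82, 10.76 and 10.89 against 10.76, 10.78 and 11.00, in the same order at the top.

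Single differences between 2 arrays of 1.5-fold or more were found in 4 of 46 members, Cyp1a1, Cyp2b2, Cyp2c12 and Cyp4a8 (8.70 percent, against 5.12 percent of all probe sets). Between the proteins there was 1 such member on low fat, Cyp2b2 (against 1.38 percent of all), and 0 with high sucrose (1.39 percent). With high sucrose and high fat there were 3, Cyp1a1 higher and Cyp2b2 and Cyp4a8 lower (1.5 percent). Sucrose alone gave 2 with normal protein (0.866 percent) and 0 with high protein (0.89 percent). These were Cyp2c12, higher by 1.57-fold, and Cyp4a8, lower by 1.61-fold. Fat gave 0 with normal protein (0.934 percent) and 3 with high protein (1.27 percent): Cyp1a1 and Cyp2c12 (1.68-fold) higher, and Cyp4a8 (1.98-fold) lower. Sucrose and fat together gave 1 with normal protein, Cyp2c12 (1.16 percent), and 2 with high protein, Cyp1a1 and Cyp4a8 (1.19 percent). With 1 array on each side, none of these single differences has a replicate check.

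**Figure D4:**
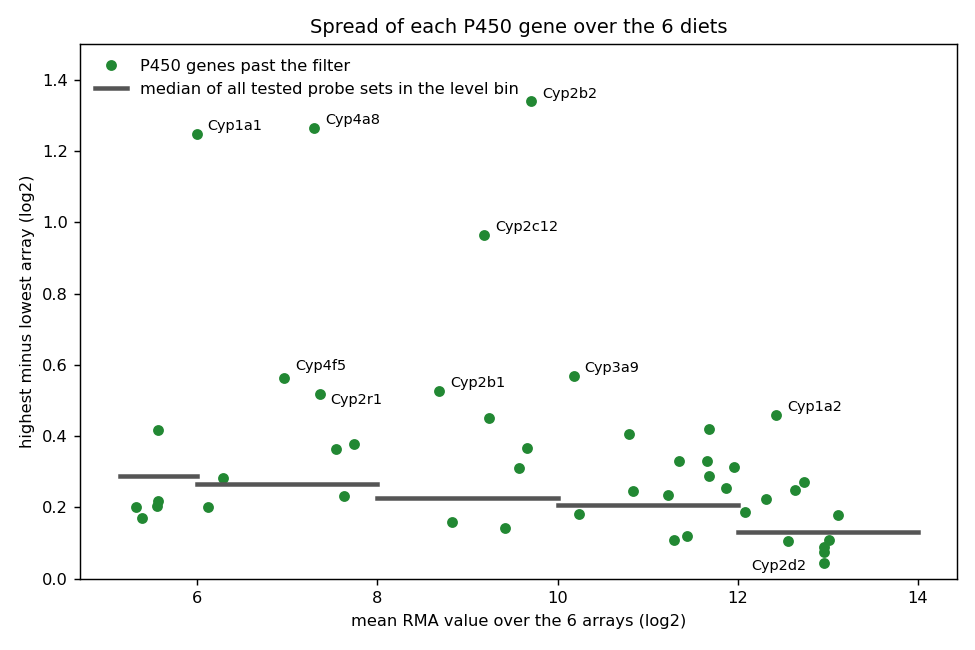
Highest minus lowest of the 6 arrays (log2, vertical axis) against the mean RMA value (log2, horizontal axis) for the 46 tested P450 genes, 1 point per gene, with grey bars for the median of all tested probe sets in each level bin. Cyp2b2 (1.34), Cyp4a8 (1.26), Cyp1a1 (1.25) and Cyp2c12 (0.96) lie above the rest, and the genes with a mean of 12 or more reach 0.46 at most, in Cyp1a2.

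The range over the 6 arrays had a median of 0.26 among the members and 0.25 among all probe sets tested. Among the 11 members with a mean of 12 or more the median range was 0.18, against 0.13 for the 327 probe sets at that level. Among the 8 members between 8 and 10 it was 0.41, against 0.23 for all at that level, and this bin holds Cyp2b1, Cyp2b2 and Cyp2c12. The smallest range was that of Cyp2d2, 0.04. The strongest members lie near the top of the array's scale, which ends at 13.92, and whether this narrowed their range was not tested. Probe sets of close relatives such as Cyp2b1 and Cyp2b2 may share transcripts, which was not tested either.

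Of 16 tested redox partners and haem enzymes, 7 were higher and 9 lower with high protein in the fit, and 0 passed the test. Por, the electron donor of all microsomal P450s, stayed between 11.22 and 11.42. Hmox1, which degrades haem, read 7.01, 7.32 and 7.33 against 7.51, 7.48 and 8.04 (fitted 0.46 ± 0.110 SE, limma adjusted p = 0.303), and its groups did not overlap. Alad, the second enzyme of haem synthesis, had a fitted difference of -0.25. Uros, a later enzyme of that pathway, had 0.14.

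Of 22 tested regulators of P450 genes, 8 were higher and 14 lower with high protein in the fit, and 0 passed the test. Nr0b2, a corepressor that bile acids induce, read 10.10, 10.03 and 10.13 against 9.41, 9.82 and 9.30 (fitted -0.58 ± 0.123 SE, limma adjusted p = 0.250). As in Cyp2b2, the groups did not overlap and came closest with high sucrose. Onecut1 and Ppargc1a had fitted differences of 0.34 and 0.27. Nr1i3, the gene of CAR, was looked up after its values were seen, and read 9.48, 9.68 and 10.11 against 9.56, 9.70 and 9.84, so that its groups overlapped. Nr1i2, the gene of PXR and likewise looked up, read 10.90, 10.88 and 10.94 against 11.07, 11.15 and 11.02. Its groups did not overlap, and it did not pass the test (fitted 0.18, limma adjusted p = 0.546).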

How the data were processed

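RNA of 5 rats per diet was pooled and hybridised to 1 array per diet. The authors deposited log2 values per probe set, normalised with RMA per the submitters' processing notes; the RMA version is not given in the sources used here. Some labels say mice, while the organism is rat. Symbols came from the platform annotation (15310 probe sets with 1 symbol, 323 with several, 13581 not listed). Probe sets with a mean above the 30th percentile were kept (20450 of 29214). limma 3.58.1 in R 4.3.3 fitted protein and background as additive terms with 2 residual degrees of freedom, and p-values were adjusted with Benjamini-Hochberg over all of them. Since each diet is 1 pool, scatter among pools of the same diet was not measured. The p-values rest instead on how far the arrays depart from the additive terms. That departure mixes protein differences that change with the background with scatter among pools, which may be partly technical. The code was tested on simulated data. Promoters were aligned with Biopython 1.88. Per-array values are given for the 8 members with the largest moderated t of each effect and for members at 1.5-fold or more. Up to 4 genes per other list are named by their fitted protein difference, besides those past the test. Members and lists were chosen with earlier results of these data known.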

Additional observations from a re-analysis of the deposited data

Results flagged for a closer look

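For 5 members the difference between HP and NP changed between backgrounds, with opposite signs at 1.2-fold or more. The opposite signs were either in HP minus NP between the backgrounds, or in the response to the background between the protein levels. For Cyp1a1 and Cyp2c12, from high sucrose to high sucrose and high fat, only HP minus NP met this. With 1 array per diet, the difference between the differences was not tested. Values are the change in HP minus NP (log2) from the first background to the second.

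From low fat to high sucrose it was -0.64 for Cyp1a1, 0.94 for Cyp2b2, -0.99 for Cyp2c12 and 0.96 for Cyp4a8. These are 4 of 46 members, and 2.01 percent of all probe sets tested met the same condition. From high sucrose to high sucrose and high fat it was 1.10 for Cyp1a1, -0.98 for Cyp2b2, 0.77 for Cyp2c12 and -1.28 for Cyp4a8. These are the same 4 of 46 members, where 1.55 percent of all probe sets met the condition. Both changes use the NP-HS and HP-HS arrays, with opposite sign. The counts for these pairs of backgrounds are therefore not independent. From low fat to high sucrose and high fat the change was -0.94 for Cyp4f5. This is 1 of 46 members, near the share over all probe sets, where 2.00 percent met the condition. In Cyp2b2, high protein was lower in all 3 backgrounds, and it was the response to the background that had opposite signs: sucrose gave -0.45 with normal protein and 0.49 with high protein.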

How the results depend on the processing

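No member passed the test for any of the 4 effects in any alternative run: ordinary t, a trended robust prior, no filter, the 50th percentile, quantile normalisation, median centring, averaged probe sets, a contrast of 4 arrays, or leaving out each array. Members at 1.5-fold or more numbered 4, against 19 at 1.2-fold (41.3 percent, with 41.6 percent of all probe sets) and 2 at 2-fold (4.35 percent, with 0.924 percent of all). Members whose protein groups did not overlap numbered 10 to 11. The ordinary t, the trended prior and the changed filters keep the same fitted differences, so they could not change a direction. Averaging could not either, since each member has 1 probe set. For protein, leaving out either array of a background gives the same fit. Of 433 alternative values of named members, 431 kept direction and side of the threshold. The others reversed: the sucrose difference of Cyp4a1 was -0.0030 without the HP array (0.20 with it, and 0.40 at most, without NP), and the fat difference of Cyp2c12 was -0.070 without HP-HS (0.37 with it, and 0.81 at most, without NP-HS); the cause was not tested. With arrays left out in turn, the protein difference of Cyp2b2 ran from -1.29 (without either HS array, adjusted p = 0.0856, the lowest of any member in the alternatives for protein) to -0.80, and the sucrose and fat difference of Cyp4a8 from -0.96 to -0.15. Over all probe sets the protein calls numbered 9, 57 with the trended robust prior, 16 with median centring, 13 at the 50th percentile, 7 with quantile normalisation, 3 with no filter, 48 without an HS-HF array, 9 with averaged probe sets, and 0 with the ordinary t or without a low fat or high sucrose array. The fit itself sets HP against NP within each background. No block by replicate number could be fitted, because each diet has 1 array and the labels carry no such numbers. The number of arrays limits the precision.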

Other observations

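Some targets of PPAR alpha outside the P450 families, named after their values were seen, were highest on the HP-HS-HF array, where Cyp4a8 was lowest. Others on that list were not: Decr1 was lowest on HP-HS-HF, Fgf21 was highest on NP, and Vnn1 was highest on NP-HS. Pdk4, a kinase that inhibits pyruvate dehydrogenase, read 10.00, 9.68 and 10.27 with normal protein and 9.69, 9.54 and 11.29 with high protein. Angptl4, an inhibitor of lipoprotein lipase, read 9.01, 9.17 and 9.48 against 8.76, 8.78 and 9.80. Their fitted fat differences were 1.17 ± 0.299 and 0.66 ± 0.168 (SE, limma adjusted p = 0.813 for both). On the same arrays Cyp4a1 stayed between 11.49 and 11.91, and Cyp4a3 between 12.52 and 12.77, highest on HP-HS-HF. Onecut1, a liver transcription factor, read 10.20, 10.10 and 9.40 against 10.17, 9.73 and 10.83, lowest on NP-HS-HF and highest on HP-HS-HF.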
